A study of Mus musculus with 6 samples.

Results

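The genes described here encode the nuclear-made subunits of the mitochondrial respiratory chain, measured in gastrointestinal stromal tumours of mice given imatinib or vehicle. They were taken by name: rows of the deposited gene-level table starting with NDUFA, NDUFB, NDUFC, NDUFS, NDUFV, UQCR or ATP5, with SDH followed by A to D, or with COX4 to COX8, plus CYCS and CYC1. The rule gave 77 of 31492 rows, and 74 of them had a probe above the negative controls (detection p under 0.05) on at least 3 of the 6 arrays. Of these 74, 71 are subunits of complexes I to V or cytochrome c, and 3 are related proteins that share the names: the complex I assembly factor Ndufaf1, the supercomplex factor Cox7a2l, and Dmac2l, deposited as ATP5S. All counts below refer to the 14713 genes tested, unless stated otherwise. The remaining 3 rows, Ndufs1, Cox4i2 and Cox8c, each had 1 probe that was detected on no array, with unnormalised signals of 31.5 to 50.5. Ndufs1 encodes a core subunit that complex I cannot do without, so that probe gives no information on its level.

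There were 3 arrays of tumours from mice injected with imatinib, an inhibitor of the KIT, ABL and PDGF receptor kinases, and 3 of tumours from mice injected with vehicle, all into the peritoneum. All mice were of the C57Bl/6 strain, carried the genotype written Kit V558Δ/+ and were 6 weeks old, so the vehicle tumours have the activated Kit allele too. The labels state neither the dose nor how long the mice were treated. They also do not tie samples to animals: the p-values below therefore reflect only how far the 3 samples of a group lie apart, which may be technical. Kit and Etv1, which mark this tumour and the interstitial cells of Cajal, were detected on all 6 arrays. The first principal component held 60.8% of the variance. On it the imatinib arrays lay at -32.8, -10.1 and -47.3 and the vehicle arrays at 60.5, -0.98 and 30.7, so that vehicle 1 stood farthest off and vehicle 2 next to imatinib 2. The samples are bulk tissue, in which fewer cells of a type and less RNA per cell cannot be told apart.

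The respiratory chain sits in the inner mitochondrial membrane. Complex I takes electrons from NADH and complex II from succinate, both pass them to ubiquinone, complex III passes them on to cytochrome c, and complex IV hands them to oxygen. Complexes I, III and IV pump protons, and complex V, the ATP synthase, uses the returning protons to make ATP. Mitochondrial DNA encodes the catalytic centre of complex IV and several membrane subunits, and nuclear genes such as those described here encode the rest, complex II entirely. Loss of complex II is known from human gastrointestinal stromal tumours that carry no KIT or PDGFRA mutation.

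None of the 74 respiratory chain genes passed the test at an adjusted p of 0.05 (limma, with the Benjamini-Hochberg adjustment made over all genes), against 1.58% of all genes tested. The smallest adjusted p was 0.0565, that of Cox7a1. At an adjusted p of 0.10, 10 of the 74 passed, Cox6a2 among them (13.5%, against 11.4% of all genes, both directions together). At an unadjusted p under 0.05, 18 of the 74 genes were lower with imatinib (24.3%, against 12.6% of all genes) and 3 were higher (4.05%, against 13.8% of all genes). A lower mean with imatinib was seen in 57 of 74 genes (77.0%), against 45.7% of all genes. The median log2 change of the 71 subunits was -0.18, and over all genes tested it was 0.04. In 30 genes every imatinib array lay below every vehicle array (40.5%, against 14.5% of all genes), and in 7 every imatinib array lay above (9.46%, against 17.4%). These genes are brighter than most, and bright probes vary less between arrays, so the same shares are given for the 1587 genes with a mean log2 signal of 11 or more. Of those, 18.4% lay below and 24.3% above without overlap, against 24 of the 58 respiratory chain genes at that signal below (41.4%) and 7 above (12.1%). Cox6a2, counted among the lower genes throughout, passed the detection filter through the vehicle arrays alone and so had to differ. Genes of one pathway vary together across arrays, so these shares are descriptions and were not tested against each other.

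**Figure D1:**
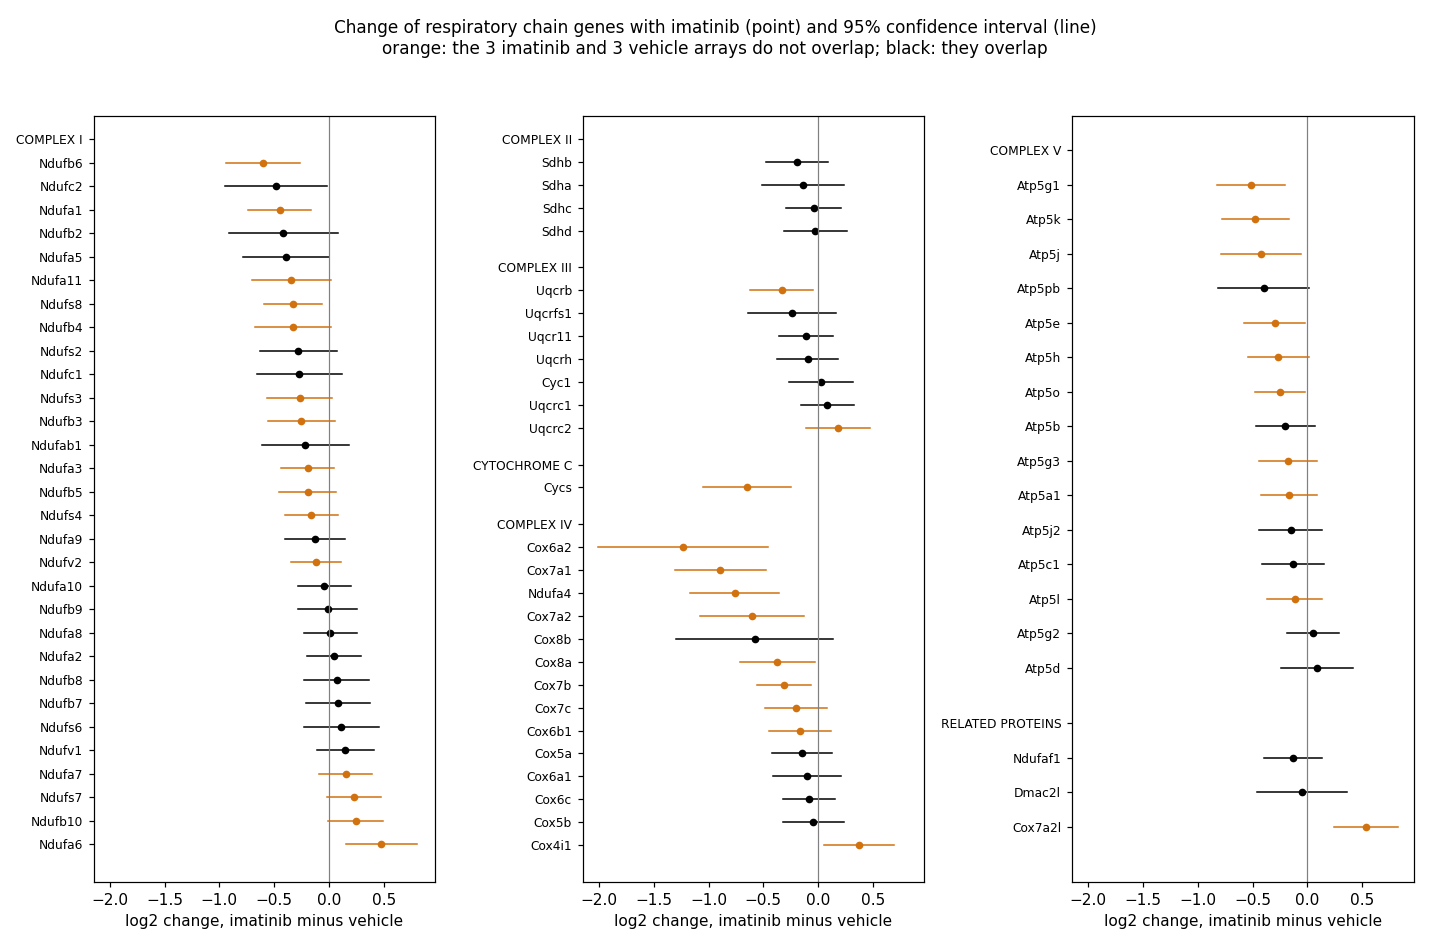
Log2 change with imatinib (x axis, imatinib minus vehicle) of each of the 74 detected genes, grouped by complex, with its 95% confidence interval from limma. Most points lie left of 0. Cox7a1 has the lowest change among genes detected in both groups, at -0.89, and Cox7a2l the highest at 0.53. Cox6a2, drawn at -1.23, was detected on no imatinib array and kept through the vehicle arrays alone. Its interval is therefore not to be read as a test. Orange marks the 37 genes whose groups did not overlap, Cox6a2 included.

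Complex I was measured by 30 genes, 6 of the core and 24 accessory. Its median log2 change was -0.18, and the genes ranged from -0.61 to 0.48. A lower mean was seen for 20 genes and a higher mean for 10, with 11 lower (36.7%, against 14.5% of all genes) and 4 higher (13.3%, against 17.4%) without overlap. The core and the accessory genes had similar medians, of -0.20 and -0.18. Among the core genes, Ndufs8, an iron-sulphur subunit of the quinone-binding arm, had a difference of -0.33 ± 0.11 (SE, adjusted p = 0.133) and Ndufs7, its neighbour in that arm, one of 0.23 ± 0.10 (adjusted p = 0.223). Ndufv1, which binds the flavin that accepts electrons from NADH, had a difference of 0.15 ± 0.11 (adjusted p = 0.400).

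Ndufb6, an accessory subunit of the membrane arm, had the lowest change of complex I on the tested probes. Its log2 signal was 8.33, 8.47 and 8.14 on the imatinib arrays, against 8.89, 8.77 and 9.08 on the vehicle arrays, a change of -0.61 ± 0.14 (SE, adjusted p = 0.0731). The groups did not overlap. Ndufc2, another membrane-arm subunit, came next with 11.69, 12.27 and 11.73 on the imatinib arrays, against 12.48, 12.18 and 12.48 on the vehicle arrays (-0.48 ± 0.19, adjusted p = 0.178). There imatinib 2 lay above vehicle 2, so the groups overlapped. A second, dimmer Ndufc2 probe had a difference of -1.06, with every imatinib array lower, and with the mean of both probes the change of Ndufc2 was -0.77, below that of Ndufb6. Ndufa1, an X-linked accessory subunit, had 12.98, 13.10 and 12.95 on the imatinib arrays and 13.53, 13.30 and 13.54 on the vehicle arrays (-0.45 ± 0.12, adjusted p = 0.0898). It was lower on every imatinib array. The largest increase was that of Ndufa6, with 12.32, 12.19 and 12.53 on the imatinib arrays against 11.76, 11.86 and 11.99 on the vehicle arrays (0.48 ± 0.13, adjusted p = 0.0977). Ndufb10 followed with 11.98, 11.82 and 11.94 against 11.74, 11.64 and 11.65 on the vehicle arrays (0.24 ± 0.10, adjusted p = 0.203). Both were higher on every imatinib array.

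Complex II, which oxidises succinate in the citric acid cycle, had a median change of -0.09, and its groups overlapped for all 4 genes. Sdha, the flavoprotein, had 5.92, 5.63 and 5.66 on the imatinib arrays, against 6.09, 5.65 and 5.89 on the vehicle arrays. Sdhb, the iron-sulphur subunit, had 10.98, 11.17 and 10.94, against 11.14, 11.22 and 11.32 on the vehicle arrays. The membrane anchors had closer means still. Sdhc had 11.06, 11.24 and 11.14 on the imatinib arrays, against 11.17, 11.17 and 11.22 on the vehicle arrays, and Sdhd 11.97, 11.73 and 11.96, against 11.82, 11.96 and 11.97. None passed, with adjusted p from 0.322 for Sdhb to 0.904 for Sdhd. The 95% intervals of the change were -0.48 to 0.09 for Sdhb, -0.51 to 0.23 for Sdha, -0.29 to 0.21 for Sdhc and -0.32 to 0.26 for Sdhd. Missing the threshold does not show that these genes were unchanged. The Sdha probe was dim, near background, where the added offset makes changes too small.

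In complex III, 4 of 7 genes had a lower and 3 a higher mean, with a median of -0.10. Uqcrb, the ubiquinone-binding protein, had 12.70, 12.85 and 12.62 on the imatinib arrays, against 13.11, 12.94 and 13.13 on the vehicle arrays (-0.33 ± 0.12 SE, adjusted p = 0.146). All imatinib arrays were lower on this probe, but a second and dimmer Uqcrb probe had the opposite sign, with 0.34. Uqcrfs1, the Rieske iron-sulphur protein that passes electrons on to cytochrome c1, had 6.15, 5.96 and 5.59, against 6.12, 6.23 and 6.05 on the vehicle arrays. The difference was -0.24 ± 0.17 (adjusted p = 0.386), with overlapping groups. Like that of Sdha, this probe was dim, where the added offset makes changes too small. Uqcrc2 had 12.47, 12.60 and 12.47 on the imatinib arrays, against 12.17, 12.46 and 12.38 on the vehicle arrays (0.18 ± 0.12, adjusted p = 0.372), a small gap without overlap. Uqcrc1, which with Uqcrc2 forms the matrix-facing core proteins, had 11.35, 11.28 and 11.40 on the imatinib arrays, against 11.23, 11.30 and 11.25. Cyc1, which encodes cytochrome c1, had a difference of 0.03 ± 0.12.

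Cytochrome c, the soluble carrier between complexes III and IV and a trigger of apoptosis when it leaves the mitochondrion, was lower on every imatinib array. Cycs had 11.66, 11.95 and 11.38 on the imatinib arrays, against 12.24, 12.40 and 12.30 on the vehicle arrays. At -0.65 ± 0.17 (SE) the difference missed the threshold (adjusted p = 0.0838), and the imatinib arrays were more spread (SD 0.29) than the vehicle arrays (SD 0.08).

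Ndufa4 was lower by a similar amount. Its gene is named for complex I, but its protein was later found in complex IV, where it is counted here. It had 12.77, 13.11 and 12.63 on the imatinib arrays, against 13.69, 13.40 and 13.70 on the vehicle arrays. The groups did not overlap, imatinib 2 was the imatinib array nearest to vehicle 2, and the difference of -0.76 ± 0.17 (SE) missed the threshold (adjusted p = 0.0676). At an adjusted p of 0.05 it passed in 2 of 19 alternatives. These were without vehicle 2, where 9.475% of all genes passed, and with array weights, where 51.6% did. Over the alternatives its adjusted p reached 0.33. In the authors' processed table the change of Ndufa4 was -1.19. Both Cycs and Ndufa4 were detected on all 6 arrays.

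**Figure D2:**
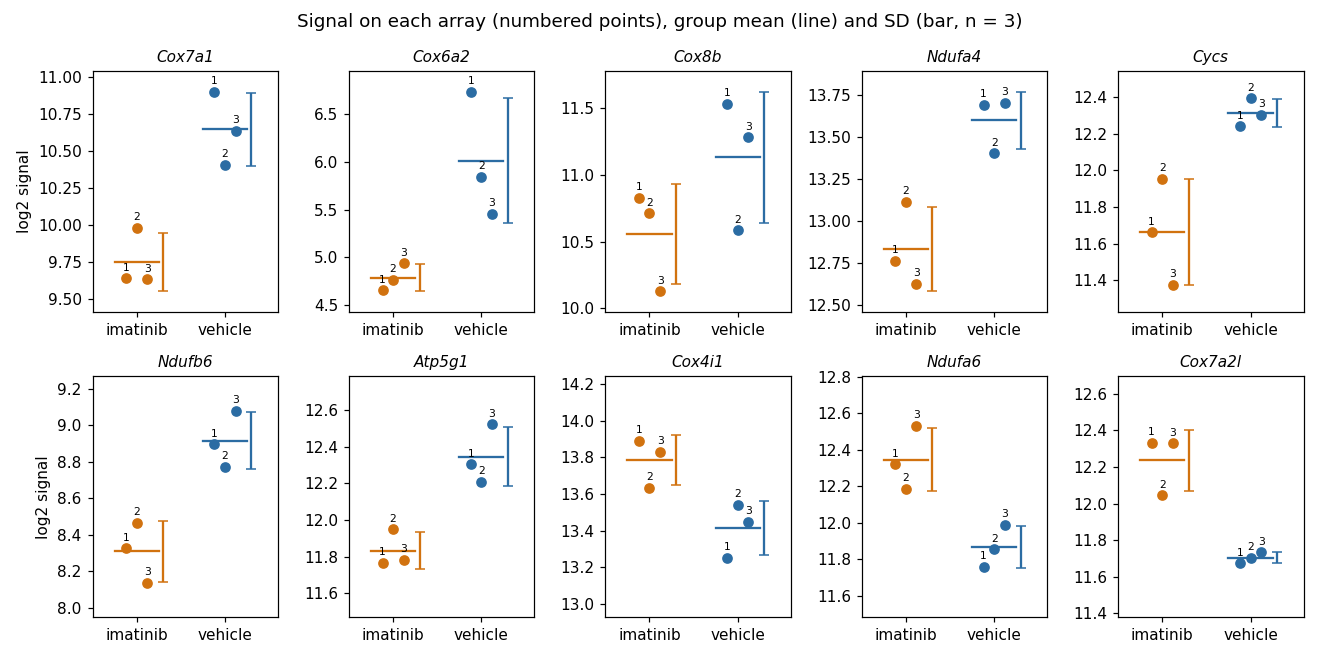
Log2 signal of 10 genes on each array, imatinib left and vehicle right, with the replicate number at each point, a line for the group mean and a bar for the SD (n = 3). For Cox7a1, Cox6a2, Ndufa4, Cycs, Ndufb6 and Atp5g1 all imatinib points lie below all vehicle points, for Cox4i1, Ndufa6 and Cox7a2l all lie above, and for Cox8b the groups overlap at vehicle 2.

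In complex IV 13 of 14 genes had a lower mean (92.9%, against 45.7% of all genes), with a median of -0.26. In 8 every imatinib array was lower (57.1%, against 14.5%) and in 1 every imatinib array was higher (7.14%, against 17.4%). Its genes include 3 isoforms that are typical of heart and skeletal muscle. Cox7a1, the muscle isoform of subunit 7a, had 9.64, 9.98 and 9.64 on the imatinib arrays, against 10.90, 10.41 and 10.63 on the vehicle arrays (-0.89 ± 0.17 SE, adjusted p = 0.0565). Every imatinib array was lower, and the difference came close to the threshold without reaching it. In 19 alternatives the change lay between -1.01 and -0.71, passing an adjusted p of 0.05 in 6: cyclic loess, the intensity trend, array weights, both deposited log2 tables, and without vehicle 2. Cox6a2, the muscle isoform of subunit 6a, was detected on no imatinib array, with values of 4.65, 4.76 and 4.93, and on every vehicle array, with 6.74, 5.84 and 5.46. Set against the lowest detected signal it was at least 1.95-fold lower. It was kept through the vehicle arrays alone, so no test is given. Cox8b, the isoform of muscle and brown fat, had 10.83, 10.71 and 10.13 on the imatinib arrays, against 11.53, 10.59 and 11.28 on the vehicle arrays (-0.58 ± 0.30, adjusted p = 0.262), and vehicle 2 lay among the imatinib values. The change of Cox8b was -0.36 without imatinib 3, -0.38 without vehicle 1, -0.85 without vehicle 2, and -0.165 without imatinib 3 and vehicle 1 together.

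Each of these isoforms has a widely expressed partner. Cox7a2, the common isoform of subunit 7a, had 10.19, 10.59 and 9.98 on the imatinib arrays, against 11.07, 10.64 and 10.86 on the vehicle arrays (-0.60 ± 0.20 SE, adjusted p = 0.128). Cox8a had 13.63, 13.59 and 13.46 on the imatinib arrays, against 14.02, 13.69 and 14.08 on the vehicle arrays (-0.37 ± 0.14, adjusted p = 0.165). Both were lower on every imatinib array. Cox6a1 had 12.80, 12.64 and 12.80, against 12.66, 12.92 and 12.97 on the vehicle arrays (-0.10 ± 0.13), and its groups overlapped. Cox6b1 had 12.93, 12.88 and 12.91 on the imatinib arrays, against 12.94, 13.23 and 13.05 (-0.17 ± 0.12). The change of the muscle isoform minus that of its partner was -0.29 for subunit 7a, where the arrays of the groups did not overlap in this difference, and -0.21 for subunit 8, where they did; these differences were not tested. Without Cox6a2, Cox7a1 and Cox8b, 10 of 11 genes of complex IV still had a lower mean, with a median of -0.17.

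Cox4i1, the common isoform of subunit 4, which binds ATP and slows the enzyme, was the exception in complex IV. It had 13.89, 13.63 and 13.83 on the imatinib arrays, against 13.25, 13.54 and 13.45 on the vehicle arrays (0.37 ± 0.13 SE, adjusted p = 0.145). Every imatinib array was higher, with imatinib 2 close to vehicle 2. The related protein Cox7a2l, which joins complexes III and IV in supercomplexes, had 12.33, 12.05 and 12.33 on the imatinib arrays, against 11.67, 11.71 and 11.73 on the vehicle arrays (0.53 ± 0.12, adjusted p = 0.0719). The vehicle values were tight, and it was the largest increase among the 74 genes. Ndufaf1 and Dmac2l had differences of -0.13 and -0.05, with overlapping groups.

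Complex V had 13 of 15 genes with a lower mean and a median of -0.20, and its genes ranged from -0.51 to 0.09. In 9 genes every imatinib array was lower (60%, against 14.5% of all genes), among them Atp5a1, the alpha subunit, Atp5e, the epsilon subunit, Atp5o, which joins the catalytic head to the stalk, and Atp5h, Atp5j, Atp5k and Atp5l of the stalk and membrane part. The membrane ring of subunit c is encoded by several genes for the same mature protein. Atp5g1 had 11.77, 11.95 and 11.78 on the imatinib arrays, against 12.30, 12.21 and 12.52 on the vehicle arrays (-0.51 ± 0.13 SE, adjusted p = 0.0804). Atp5g3 had 14.26, 14.47 and 14.26, against 14.49, 14.48 and 14.56 on the vehicle arrays (-0.18 ± 0.11, adjusted p = 0.344). Both were lower on every imatinib array, the second by a narrow margin. Atp5g2 had 10.60, 10.62 and 10.72 on the imatinib arrays, against 10.59, 10.58 and 10.63 on the vehicle arrays (0.05 ± 0.10, adjusted p = 0.780), with overlapping groups. The change of Atp5g1 minus that of Atp5g3 was -0.34, and minus that of Atp5g2 it was -0.56, with no overlap of the arrays in either difference, which was not tested.

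Atp5k, subunit e, which helps pair the enzymes into dimers, had 8.36, 8.10 and 8.04 on the imatinib arrays, against 8.58, 8.70 and 8.64 on the vehicle arrays (-0.47 ± 0.13 SE, adjusted p = 0.0889). On the tested probes it was the second largest decrease of complex V. A dimmer Atp5k probe had a difference of -0.26, with overlapping groups. A dimmer Atp5o probe had one of -0.76, with every imatinib array lower. The catalytic beta subunit Atp5b had a difference of -0.20 ± 0.11 with overlapping groups. Atp5d, the delta subunit, had 11.55, 11.60 and 11.56 on the imatinib arrays, against 11.28, 11.70 and 11.48 on the vehicle arrays (0.09 ± 0.14), and it turned to a negative change with median scaling or without vehicle 1. The 5 genes of the catalytic head had a median of -0.17 and the other 10 genes of complex V one of -0.26.

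Several genes had more than 1 probe. Of 33 other kept probes, belonging to 24 of the genes, 30 had the sign of the tested probe. The exceptions were dimmer probes of Uqcrb, Ndufb8 and Atp5pb (deposited as ATP5F1), with differences of 0.34, -0.39 and 0.34, where the tested probes had -0.33, 0.07 and -0.40.

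**Figure D3:**
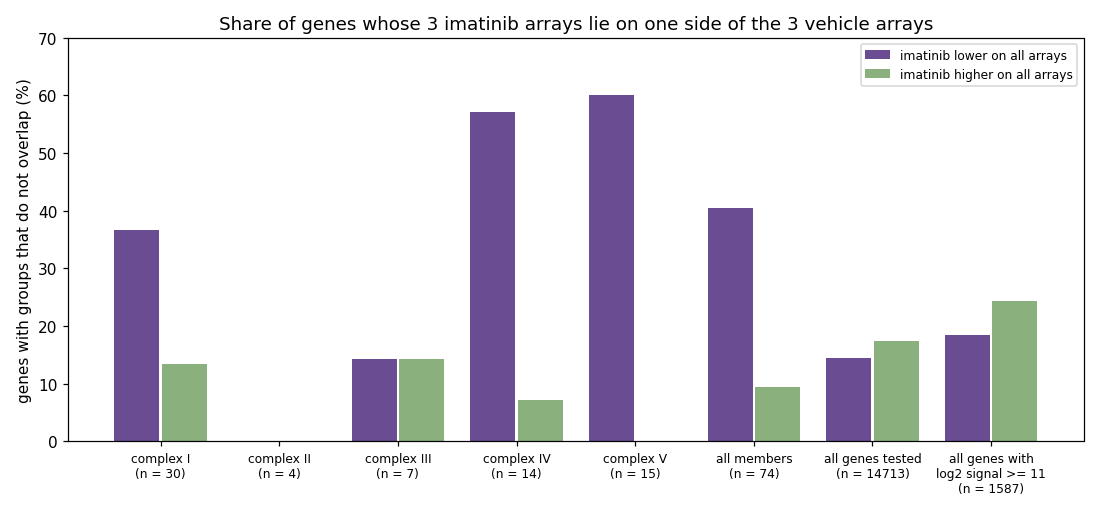
Percentage of genes (y axis) whose 3 imatinib arrays all lie below (left bar) or all above (right bar) the 3 vehicle arrays, for each complex, all 74 genes and the background of all genes and of bright genes. Complexes IV and V have 57.1% and 60% below, complex I has 36.7%, complex III has 14.3%, complex II has none, and all genes tested have 14.5%.

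The promoters of the marker genes Ndufa4 and Cycs, of Cox7a1 with the smallest p, and of Ndufa6 with the largest increase of complex I are shown because expression of respiratory chain genes is commonly tied to the factors NRF1, GABPA, YY1 and ERR. Each is a window of 300 bases around the gene's start in RefSeq on build GRCm38.p6, 5′ to 3′ on the gene's strand, and capitals mark the letters searched for the core of the NRF1 site, GCGCATG or its reverse CATGCGC.
Ndufa4 (chr6:11907401-11907700, minus strand): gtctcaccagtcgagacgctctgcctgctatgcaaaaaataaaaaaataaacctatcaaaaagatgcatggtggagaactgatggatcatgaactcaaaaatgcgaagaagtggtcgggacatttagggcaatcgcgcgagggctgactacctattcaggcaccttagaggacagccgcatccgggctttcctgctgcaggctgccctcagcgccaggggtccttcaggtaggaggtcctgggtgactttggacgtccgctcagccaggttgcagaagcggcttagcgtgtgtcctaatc
Cycs (chr6:50566520-50566819, minus strand): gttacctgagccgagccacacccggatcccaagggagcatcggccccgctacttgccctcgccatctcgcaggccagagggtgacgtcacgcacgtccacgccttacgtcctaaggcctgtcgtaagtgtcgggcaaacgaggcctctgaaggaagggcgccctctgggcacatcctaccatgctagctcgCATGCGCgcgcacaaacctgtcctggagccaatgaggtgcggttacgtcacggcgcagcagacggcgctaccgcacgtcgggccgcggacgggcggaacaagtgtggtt
Cox7a1 (chr7:30183921-30184220, plus strand): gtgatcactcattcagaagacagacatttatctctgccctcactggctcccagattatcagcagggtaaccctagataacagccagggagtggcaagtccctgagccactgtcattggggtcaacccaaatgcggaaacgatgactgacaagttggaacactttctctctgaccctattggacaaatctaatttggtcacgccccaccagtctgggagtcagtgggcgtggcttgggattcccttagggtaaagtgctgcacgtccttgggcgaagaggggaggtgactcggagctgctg
Ndufa6 (chr15:82354242-82354541, minus strand): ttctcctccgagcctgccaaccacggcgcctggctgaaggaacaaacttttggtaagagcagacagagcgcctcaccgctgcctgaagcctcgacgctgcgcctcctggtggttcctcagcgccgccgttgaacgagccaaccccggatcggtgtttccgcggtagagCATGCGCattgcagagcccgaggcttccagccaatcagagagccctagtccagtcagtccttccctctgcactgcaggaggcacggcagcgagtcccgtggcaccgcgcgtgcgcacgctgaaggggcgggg
The NRF1 letters stand in the windows of Cycs, which was lower with imatinib, and Ndufa6, which was higher, and in neither of the windows of Ndufa4 and Cox7a1.

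Of the 74 genes, 63 had a promoter window that was searched, on both strands. The NRF1 letters were found in 14 of them (22.2%), against 5.39% of 17491 protein-coding genes. The letters CCGGAAG of GABPA and other ETS factors were found in 17 (27.0%, against 12.9%), AAGATGGC of YY1 in 10 (15.9%, against 3.57%) and TCAAGGTCA of ERR in 2 (3.17%, against 0.377%). The full palindromic NRF1 site, which contains these letters, was found in 5 (7.94%, against 1.47%). The median GC content was 57.5% in the windows of these genes and 56.3% in all windows. The median change was -0.11 for the 14 genes with the NRF1 letters and -0.20 for the 49 without, and -0.20 and -0.19 for the 17 genes with and the 46 without the GABPA letters. A match is a run of letters and no evidence of binding.

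Taken over all subunits, the imatinib arrays lay below the vehicle arrays. Relative to each gene's mean over the 6 arrays, the 71 subunits averaged -0.10, -0.04 and -0.16 on the imatinib arrays, against 0.09, 0.05 and 0.15 on the vehicle arrays, in log2 units. The groups did not overlap for complexes I, II, IV and V, and they did for complex III. The margin was narrow for complex I, with imatinib 2 at -0.001 and vehicle 2 at 0.022. It was narrow too for complex II, with imatinib 1 at -0.019 and vehicle 2 at -0.0003. Over all subunits, imatinib 2 and vehicle 2 were the arrays of their groups nearest to each other, as on the first principal component. Leaving out vehicle 1 gave a median change of the subunits of -0.20, leaving out vehicle 2 one of -0.19, and over all 6 arrays left out in turn it ranged from -0.20 to -0.15. The count of genes lower at an unadjusted p under 0.05, 18 with all arrays, was 9 without imatinib 1 or imatinib 3, 20 without imatinib 2, 9 without vehicle 1, 17 without vehicle 2 and 8 without vehicle 3. The share of all genes with such a p, both directions together, moved as well, from 26.4% with all arrays. It was 17.5%, 28.3% and 17.2% without imatinib 1, 2 and 3, and 19.9%, 33.5% and 16.8% without vehicle 1, 2 and 3.

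**Figure D4:**
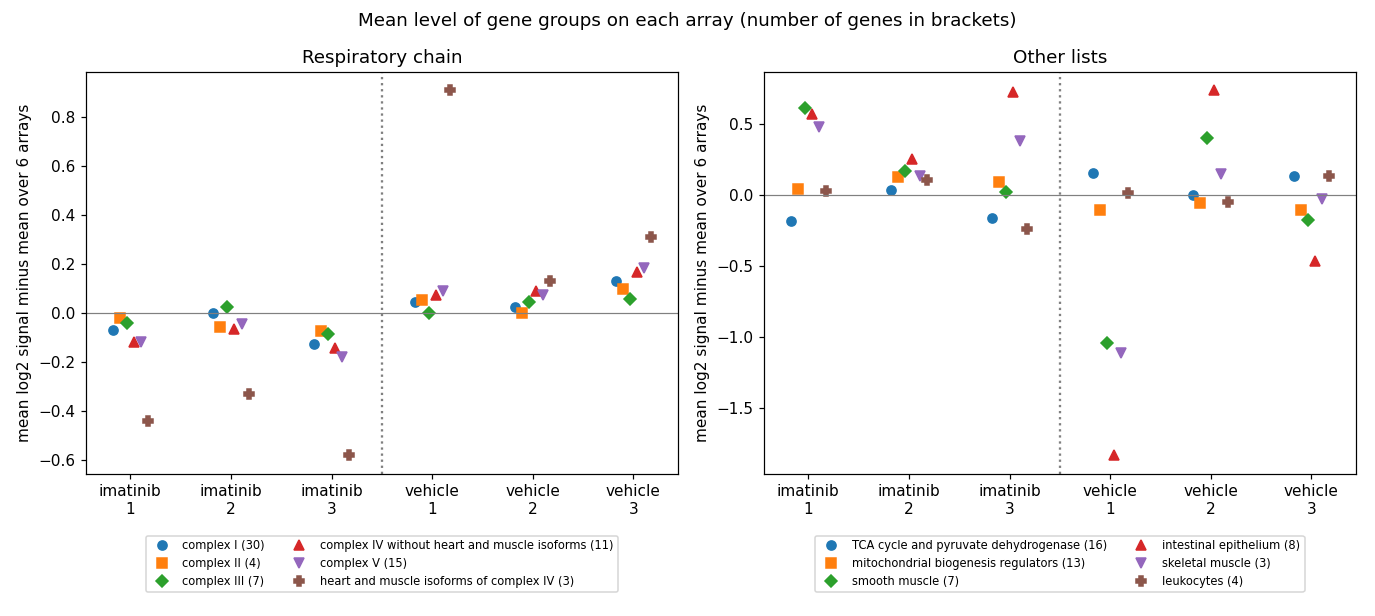
Mean log2 signal of each gene group on each array relative to the genes' means over 6 arrays, with respiratory chain groups on the left and other lists on the right. Complex IV is drawn without its heart and muscle isoforms, which are drawn apart. Complexes I, II, IV and V lie lower on every imatinib array than on any vehicle array, complexes I and II by a narrow margin. The heart and muscle isoforms, Cox6a2 included, reach 0.91 on vehicle 1, and the intestinal epithelium list lies at -1.83 on the same array.

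Markers of other cell types were set beside these values. All 8 listed markers of intestinal epithelium were tested and all had a higher mean with imatinib, none passing; their mean lay at 0.57, 0.25 and 0.73 on the imatinib arrays and at -1.83, 0.74 and -0.46 on the vehicle arrays. Smooth muscle markers, 7 of 8 tested, lay at 0.61, 0.17 and 0.02 on the imatinib arrays and at -1.04, 0.40 and -0.18 on the vehicle arrays, with none passing and Cnn1 undetected. Krt18 and Cdh1 of epithelium had differences of 1.48 ± 0.57 and 0.85 ± 0.41 (SE, adjusted p = 0.169 and 0.237), and the muscle genes Acta2 and Myh11 of 0.60 ± 0.26 and 0.86 ± 0.48 (adjusted p = 0.202 and 0.291). The subunits averaged 0.09 on vehicle 1, where these markers were lowest, and 0.05 on vehicle 2, where they were highest among the vehicle arrays. The part of these cells in the changes of the subunits was not tested. For the heart and muscle isoforms of complex IV, the markers of striated muscle and brown fat are the ones to set beside them. Of 7 markers of skeletal muscle, 3 were tested, and all 3 had a higher mean with imatinib. Tnnt3 was at least 1.90-fold higher but was kept through the imatinib arrays alone, being detected on no vehicle array. Myl1, dim but higher on every imatinib array, and Acta1, with overlapping groups, had differences of 0.75 ± 0.29 and 0.08 ± 0.78 (SE, adjusted p = 0.167 and 0.956). Ckm was detected on 2 arrays and Mb on 1, and Myh4 and Pvalb on none. The heart markers Myh6 and Nppa and the brown fat gene Ucp1 were detected on no array. Leukocyte markers, 4 of 5 tested, lay at 0.03, 0.11 and -0.24 on the imatinib arrays and at 0.01, -0.05 and 0.13 on the vehicle arrays, but the genes were split. Cd79a of B cells rose by 1.65 ± 0.23 (adjusted p = 0.0418), while Ptprc, Cd3e and Csf1r had differences of -0.45 ± 0.15, -0.81 ± 0.19 and -0.66 ± 0.22 (adjusted p = 0.135, 0.0749 and 0.133), each without overlap. Of 4 pancreatic acinar genes 2 were tested, and Amy2, an amylase, rose by 1.89 ± 0.21 (adjusted p = 0.0339). No gene of the whole table passed (limma) without imatinib 1, imatinib 3, vehicle 1 or vehicle 3, where 16.8% to 19.9% had an unadjusted p under 0.05. Adipoq, the one gene tested of 4 of white fat, and Cidea, tested beside Ppargc1a in the brown fat list, had differences of -0.12 ± 1.07 and 0.01 ± 0.32. Ppargc1a itself had a difference of -0.80 ± 0.26 (adjusted p = 0.130), and its vehicle 2 value lay among the imatinib values, as for Cox8b. Kit and Etv1 had differences of -0.30 ± 0.26 and 0.09 ± 0.21 (adjusted p = 0.485 and 0.806).

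Other mitochondrial genes were read from lists of their own. No gene passed among 16 of the citric acid cycle and pyruvate dehydrogenase, of which 13 had a lower mean with a median of -0.10, and their mean overlapped between groups. Idh3a, a subunit of the cycle's isocitrate dehydrogenase, had 9.56, 10.31 and 9.46 on the imatinib arrays, against 11.34, 10.67 and 11.06 on the vehicle arrays (-1.25 ± 0.28 SE, adjusted p = 0.0705), a larger difference than that of any respiratory chain gene detected in both groups. Sucla2, of succinyl-CoA ligase, had a difference of -0.47 ± 0.15 (adjusted p = 0.117). Neither of these genes had overlapping groups.

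Among 13 regulators of mitochondrial biogenesis none passed, 9 had a higher mean and the median was 0.11, and the mean of the list was higher on every imatinib array. Nrf1, the factor whose site is named above, had 8.81, 8.76 and 8.74 on the imatinib arrays, against 8.43, 8.34 and 8.37 on the vehicle arrays (0.39 ± 0.10 SE, adjusted p = 0.0821). Mterf1a, which binds mitochondrial DNA, had 8.88, 8.78 and 9.00, against 8.41, 8.47 and 8.41 on the vehicle arrays (0.46 ± 0.11, adjusted p = 0.0749). Both were higher on every imatinib array. Ppargc1a, the coactivator that drives mitochondrial genes in muscle and brown fat, had a lower mean, with 10.17, 10.58 and 10.06 on the imatinib arrays against 11.41, 10.54 and 11.27 on the vehicle arrays (-0.80 ± 0.26, adjusted p = 0.130), and vehicle 2 lay among the imatinib values. Its paralogue Ppargc1b had a higher mean, with a difference of 1.28 ± 0.51 (adjusted p = 0.177) and overlapping groups.

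Assembly factors outside the name rule, carriers and import proteins, fatty acid oxidation, hypoxia-induced genes and mitochondrial antioxidants held no gene that passed. Of 19 assembly factors 13 had a lower mean, with a median of -0.15, and Foxred1 and Uqcc2, factors for complexes I and III, had differences of -0.37 ± 0.13 and -0.35 ± 0.13 (SE, adjusted p = 0.145 and 0.158). Of 17 carriers and import proteins 11 had a lower mean, with a median of -0.09. Slc25a4, the heart and muscle form of the ADP/ATP carrier, had 8.93, 9.26 and 8.93 on the imatinib arrays, against 9.86, 9.36 and 9.93 on the vehicle arrays (-0.68 ± 0.19, adjusted p = 0.0981), and the pore gene Vdac3 had a difference of -0.34 ± 0.14 (adjusted p = 0.179). Of 13 genes of fatty acid oxidation 8 had a higher mean. Acadl, a long-chain acyl-CoA dehydrogenase, had a difference of -0.73 ± 0.14 (adjusted p = 0.0583) and the thiolase gene Acaa2 one of 0.71 ± 0.22 (adjusted p = 0.115). Of 12 hypoxia-induced genes 9 had a higher mean, with a median of 0.29, and Bnip3l and Egln3 had differences of 0.51 ± 0.15 and -0.59 ± 0.17 (adjusted p = 0.105 and 0.108). The 8 antioxidant genes had a median of 0.02, and Sod2, the mitochondrial superoxide dismutase, and Prdx3 had differences of -0.30 ± 0.14 and -0.29 ± 0.16 (adjusted p = 0.233 and 0.272).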

How the data were processed

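RNA of 6 tumour samples was measured on Illumina bead arrays, with a single array for each sample, and groups were taken from the labels. For each of 45281 probes a deposited table without normalization holds, per the file headers, the mean intensity, the count of its beads, the standard error of the signal over them and a detection p-value. A deposited gene-level table holds log2 values without normalization, and another holds log2 values the authors had normalized. The submitters' processing notes name Partek, with no version. On every array the normalized table had the ranks of the gene-level one, and its median was 5.53 throughout. Its target distribution stays unknown, and its values are uncentred log2 levels that carry no direction.

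Each of the 31492 gene-level rows equalled the log2 of the mean signal of exactly 1 run of neighbouring probes, which tied probes to names; 4 rows with repeated names were left out. The platform annotation gave 1 gene symbol for the rows it lists and several for none. Names were updated through RefSeq (GRCm38.p6). Background was corrected by limma's neqc (limma 3.58.1 in R 4.3.3, offset 16, which makes changes of dim genes too small), followed by quantile normalization. A probe was kept if its detection p was under 0.05 on 3 or more arrays, and the brightest stood for its gene, 14713 in all. Groups were compared with lmFit and eBayes, adjusted by Benjamini-Hochberg over all genes. The procedure was also run on simulated data in which genes varied independently of each other. Genes of these arrays vary together, so that run does not show how often genes pass wrongly here. Between 20684 and 21439 probes per array were detected. The number of arrays limits the precision.

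Genes, lists and tests were chosen with earlier results of these data known. Array values are given for the 2 largest increases and decreases of each complex, the markers Ndufa4 and Cycs, isoform pairs, complex II, and in each other list the 2 genes with the smallest p or those that passed. Ndufa1, Cox7a2l, Ppargc1b and the leukocyte genes other than Cd79a were added after their values were seen. The labels do not state that replicate numbers pair the arrays. The deviations of same-numbered arrays from their group means correlated at -0.11, -0.31 and 0.02. With 3 arrays per group such deviations sum to 0 for each gene, so these values cannot exclude a pairing.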

Additional observations from a re-analysis of the deposited data

How the results depend on the processing

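The direction of the medians of complexes I, II, IV and V held under every alternative run, and that of complex III did not: with the mean of a gene's probes it was 0.0049. Without heart and muscle isoforms (chosen after seeing the data) the median of complex IV was -0.17. With median scaling the medians were -0.29, -0.16, -0.15 and -0.36 for complexes I to IV, with array weights -0.37 for complex IV, and with the mean of a gene's probes -0.16 for complex II. Leaving out each array in turn gave medians from -0.14 to -0.0448 for complex III.

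Respiratory chain genes that passed numbered 0 with all arrays and the main setting. They numbered 45 with array weights (60.8%, against 51.6% of all genes, both directions together). With cyclic loess 1 passed (1.35%, against 3.29% of all genes), and with the intensity trend 2 passed (2.70%, against 2.92%). The deposited gene-level values gave 1 (1.35%, against 2.60%), and the authors' processed values gave 1 (1.35%, against 2.62%). At an adjusted p of 0.10 they numbered 10 (13.5%, against 11.4% of all genes, both directions together). Without single arrays they numbered 0 to 3, the 3 being Cox7a1, Ndufa4 and Ndufb6 without vehicle 2 (4.05%, against 9.475% of all genes). Of all genes, 232 passed, 484 with cyclic loess, 409 with the mean of a gene's probes, 429 with the trend, 7589 with array weights, 382 and 385 with the deposited and processed tables, 1673 at an adjusted p of 0.10, 0 to 1394 without single arrays, and 0 without a detection filter, where 29516 genes were tested, or without imatinib 3 and vehicle 1 together (added after seeing the data), where 13.6% had an unadjusted p under 0.05. Without a detection filter that share was 17.6%.

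At an unadjusted p under 0.05, 18 members were lower (24.3%, against 12.6% of all genes) and 3 higher (4.05%, against 13.8%) in the main setting. The lower ones numbered 39 with array weights and 32 in the authors' processed table. They numbered 7 without imatinib 3 and vehicle 1 together, and 8 to 20 without single arrays. The higher ones numbered 5 with offset 50, no detection filter, the trend or the deposited tables, 7 with array weights, and 1 without imatinib 3 and vehicle 1. Of all genes, 59.1% had such a p with array weights, 26.7% and 26.9% in the deposited and processed tables. With offset 50 the share was 27.0%, with the trend 27.1% and without a detection filter 17.6%. It was 16.8% to 33.5% without single arrays and 13.6% without imatinib 3 and vehicle 1 together. These shares count both directions, so they are no like measure for the counts in either direction. With the replicate number as a block no gene passed (limma), 19.7% of all genes had an unadjusted p under 0.05, and 8 members were lower. The labels do not state that these numbers pair the arrays.

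Uqcrb turned from -0.33 to 0.0049 with the mean of its probes, which differ in sign. Genes near 0 changed sign too: Uqcrc1 at -0.0155, Atp5d at -0.0104 and Atp5g2 at -0.0409 with median scaling. Without 1 array, or without imatinib 3 and vehicle 1 together, Sdha ranged from -0.247 to 0.0069, Atp5d from -0.0173 to 0.196, Sdhc from -0.0890 to 0.0016 and Sdhd from -0.116 to 0.0513. The cause was not tested.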

Other observations

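The platform lists 8 more detected subunits under older or clone names, which the name rule does not take. None passed. Ndufa12, an accessory subunit of complex I, had 10.45, 10.83 and 10.40 on the imatinib arrays, against 11.25, 11.02 and 11.38 on the vehicle arrays, a change of -0.65 ± 0.16 (SE, adjusted p = 0.0807, limma). Cox6b2, the testis isoform of subunit 6b, had 7.95, 7.52 and 7.16 on the imatinib arrays, against 8.97, 8.27 and 8.42 on the vehicle arrays (-1.01 ± 0.26, adjusted p = 0.0869), while its common partner Cox6b1 had a difference of -0.17. Every imatinib array was lower for both Ndufa12 and Cox6b2. Uqcr10, Ndufa13, Atp5mpl and Atp5md were lower on every imatinib array by smaller amounts, with changes from -0.27 to -0.18, and Ndufv3 and Ndufb11 were higher on every imatinib array, by 0.20 and 0.47. Of all genes tested, 14.5% were lower and 17.4% higher without overlap. The Ndufb11 probe was dim, at 5.6 to 6.7, not far above the lowest detected signals of 5.04 to 5.14.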
